A study of Rattus norvegicus with 6 samples.

Results

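The miR-26 family was followed through small RNA libraries of the rat trigeminal ganglion, where the sensory neurons of the face have their cell bodies. Its members were the rows of the deposited count table named miR-26a or miR-26b, whatever the arm. There were 4 such rows among 650 miRNAs: rno-miR-26a-5p, rno-miR-26a-3p, rno-miR-26b-5p and rno-miR-26b-3p, written below without the species prefix. Libraries came from ipsilateral ganglia of Sprague-Dawley rats aged 8 to 10 weeks, 14 days after surgery. In the CCI-ION group (3 libraries), loose silk ligatures were tied around the left infraorbital nerve, a chronic constriction injury used as a model of trigeminal neuropathic pain. In the sham group (3 libraries), the nerve was exposed on one side and not tied. Whether every library is its own animal is not said in the labels, and p-values therefore reflect only how far these libraries spread, which may be technical. The whole ganglion was sampled, so fewer cells of a type and less RNA per cell cannot be told apart.

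A miRNA is cut from a hairpin precursor, whose 5′ and 3′ arms each can give a mature strand of about the same length. The strand kept in an Argonaute protein finds its target mRNAs mainly through the seed, bases 2 to 8 from its 5′ end. miR-26 is conserved among vertebrates, is high in many differentiated tissues, and lies in introns of genes of the Ctdsp family of phosphatases, which act with the neuronal gene repressor Rest. In zebrafish, miR-26b lowers its own host family member ctdsp2 during neurogenesis. Other known targets are the histone methyltransferase Ezh2 and, in mouse sensory neurons, the kinase Gsk3b, through which miR-26a supports regrowth of axons.

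The mature strands are shown with the seed in capitals because the seed defines the family and separates its arms. All 4 were matched by name in the RefSeq miRNA table (build GRCr8), and each was identical to the deposited sequence.
miR-26a-5p: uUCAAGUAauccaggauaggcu
miR-26b-5p: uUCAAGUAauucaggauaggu
miR-26a-3p: cCUAUUCUugguuacuugcac
miR-26b-3p: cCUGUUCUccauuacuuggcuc

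The 5p strands shared the seed UCAAGUA. No other row of the 650 had it, and RefSeq listed it for these 2 mature rat miRNAs. Over the 21 bases they have in common, counted from 1 at the 5′ end, miR-26a-5p and miR-26b-5p differed by C11U and C21U (the miR-26a-5p base first), and miR-26a-5p is 1 base longer. The next most similar rows to miR-26a-5p differed at 11 bases. How reads that fit both 5p strands were divided is a point not given in the sources used here, so the split between miR-26a-5p and miR-26b-5p is uncertain. The 3p strands were less alike, with 7 differences over 21 bases and seeds that were not the same, CUAUUCU and CUGUUCU. No other row had either 3p seed.

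The hairpins are shown with both mature arms in capitals, since reads turned out to be very unequal between the arms.
Mir26a: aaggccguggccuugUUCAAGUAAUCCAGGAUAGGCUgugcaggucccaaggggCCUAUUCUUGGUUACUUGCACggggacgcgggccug
Mir26b: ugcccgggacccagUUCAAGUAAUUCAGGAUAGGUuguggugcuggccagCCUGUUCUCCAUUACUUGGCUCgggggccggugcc

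Mir26a lies at chr8:127633048-127633137 on the plus strand of GRCr8, inside Ctdspl, and Mir26b at chr9:83425709-83425793 on the plus strand, inside Ctdsp1. RefSeq lists 1 rat hairpin for each name. In mouse and human, a further hairpin within Ctdsp2 gives the same miR-26a-5p strand with another 3p strand, and a rat counterpart was not analysed here. Mir26a is 90 bases long and Mir26b 85, with 17 and 15 bases between the arms. Folded with RNAfold, the precursors had minimum free energies of -47.4 and -43.4 kcal/mol. In these predicted folds 18 of the 22 bases of miR-26a-5p paired with its 3p arm, as did 17 of the 21 bases of miR-26b-5p. Within the 5p seeds, 6 of 7 bases were paired in both precursors.

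Reads of the family were mostly those of miR-26a-5p. Total miRNA counts were 6420434 to 11014970 in CCI-ION libraries and 10084327 to 12560545 in sham libraries. miR-26a-5p took 8.33%, 9.87% and 9.98% of them in CCI-ION libraries 1 to 3, and 8.19%, 8.68% and 10.8% in sham libraries 1 to 3. It was the second most abundant miRNA in each of the 6 libraries, behind miR-99a-5p, which stood higher in 6 of 6. The row below it in mean level was let-7i-5p, a member of the let-7 family of differentiated cells. miR-26a-5p exceeded let-7i-5p in 6 of 6 libraries, by a factor of 1.02 to 1.37. The next row down was miR-27b-3p, and miR-26a-5p exceeded it by a factor of 1.20 to 2.00. The lead over let-7i-5p was thus close to nothing in 1 library, and their ranges overlapped. Mature strands are 21 or 22 bases long in this family and one read covers a whole strand, so levels were compared between miRNAs without a length correction. How evenly different strands enter a library was not measured. Ranks, ratios and shares therefore compare reads, not amounts in the tissue.

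miR-26b-5p stood at rank 53 by mean level. It held 0.147%, 0.251% and 0.191% of miRNA counts in CCI-ION libraries 1 to 3, and 0.193%, 0.238% and 0.213% in sham libraries 1 to 3. Its neighbours in level were miR-152-3p and miR-96-5p above it, and miR-3557-5p and miR-10a-5p below it. miR-26b-5p was the higher of the pair in 2, 3, 3 and 5 of 6 libraries against these rows, in the same order, so none of the 4 was separated from it in all libraries. miR-26b-3p stood at rank 352 with 46 to 82 counts per library, between miR-3556a and miR-3120 above it and miR-203b-5p and miR-135b-5p below it. It was the higher of the pair in 2, 3, 4 and 3 of 6 libraries, in that order. miR-26a-3p stood at rank 601 of 650, among rows with almost no counts: miR-3562, miR-551b-5p, miR-760-5p and miR-463-3p.

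**Figure D1:**
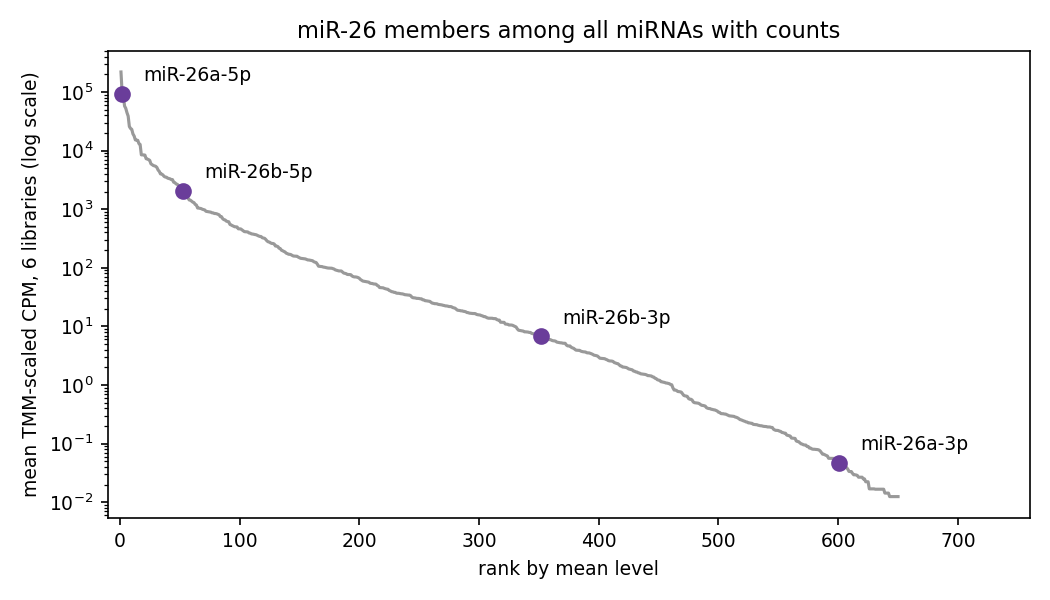
Mean TMM-scaled CPM over the 6 libraries (vertical axis, log scale) against rank (horizontal axis) for all miRNAs with counts, with the miR-26 members as purple points. miR-26a-5p stands at rank 2, miR-26b-5p at 53, miR-26b-3p at 352 and miR-26a-3p at 601.

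Nearly all reads with the family seed came from miR-26a-5p. Its share of the reads of both 5p strands was 98.3%, 97.5% and 98.1% in CCI-ION libraries 1 to 3, and 97.7%, 97.3% and 98.1% in sham libraries 1 to 3. The share thus lay within about a percentage point in all libraries, whichever operation the rat had.

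Reads of the 3p strand of Mir26a were all but missing. The row miR-26a-3p had 0, 0 and 1 counts in CCI-ION libraries 1 to 3, and 2, 0 and 0 counts in sham libraries 1 to 3. Set against the reads of both arms, that was 1 of 2318322 in the CCI-ION group and 2 of 3000673 in the sham group, or 0.431 per 1000000 reads (95% exact binomial interval 0.0109 to 2.40) and 0.667 per 1000000 reads (0.0807 to 2.41). A count of this size says nothing about a difference between the groups, and the row did not pass the filter on low counts. Intervals here cover counting error only, since the deposited values carry no molecular identifiers.

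Reads of the 3p strand of Mir26b were rare but present in every library. miR-26b-3p made up 0.381%, 0.333% and 0.312% of the reads of its hairpin in CCI-ION libraries 1 to 3, and 0.338%, 0.293% and 0.348% in sham libraries 1 to 3. The 95% exact binomial intervals of single libraries reached down to 0.229% and up to 0.489%, and those of all 6 libraries overlapped. Within every library the 3p share was lower for Mir26a than for Mir26b, with a mean difference of -0.334 percentage points (SD 0.0304 over 6 libraries), which is nearly the whole share of Mir26b. No test is given, since the comparison was chosen after the counts had been seen. It bears on the deposited 3p sequences only, and the handling of shifted or trimmed strands was a point not given in the sources used here. A rat counterpart of the hairpin within Ctdsp2 was not analysed, so some miR-26a-5p reads might come from outside Mir26a. The 3p share of the Mir26a hairpin itself is therefore uncertain, and so is its difference from Mir26b.

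A total of 162 miRNAs had both arms listed under the same name and at least 1000 counts in all. Among these names miR-26a was the most one-sided, with 0.564 counts of the rarer arm per 1000000 (95% exact binomial interval 0.116 to 1.65). The rows closest to it were miR-100 at 2.96 and miR-99a at 10.1 per 1000000, which are, like miR-26a, abundant 5p miRNAs. miR-26b came 50th of the 162, at 3327 per 1000000, and the median was 18041 per 1000000. The rarer arm had 3 counts for both miR-26a and miR-100, so which of them comes first is uncertain. The order is a description of these 6 libraries, and low shares can be seen only in abundant miRNAs. It compares rows by name, and the 5p and 3p reads of a name need not all come from the same hairpin.

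**Figure D2:**
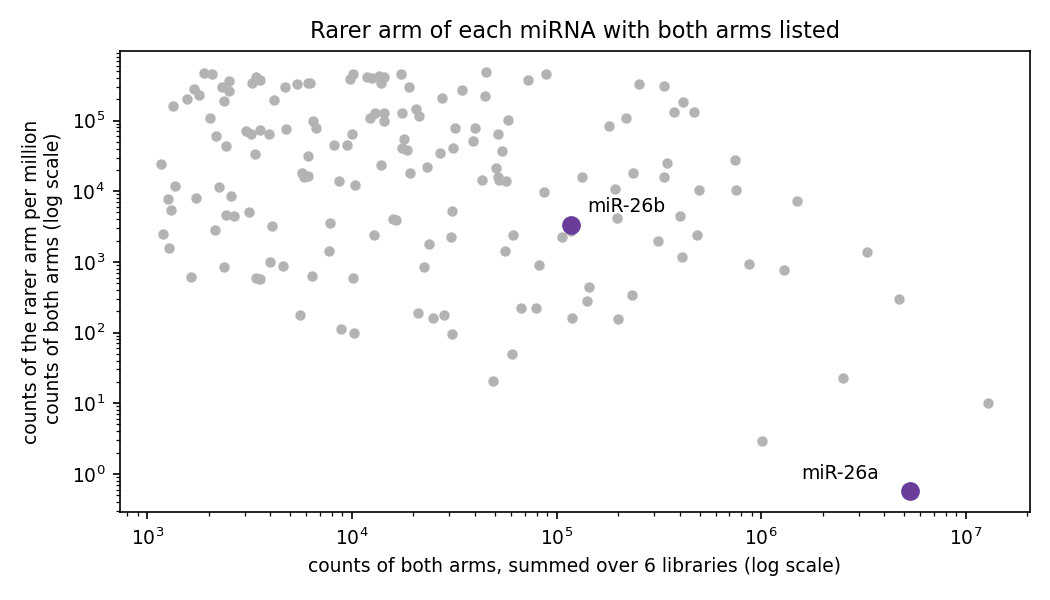
Counts of the rarer arm per 1000000 counts of both arms (vertical axis, log scale) against the counts of both arms summed over 6 libraries (horizontal axis, log scale) for 162 miRNAs with both arms listed under the same name, grey points, with miR-26a and miR-26b in purple. miR-26a is the lowest point, at 0.564 per 1000000, and miR-26b lies at 3327 per 1000000.

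Next, CCI-ION was set against sham, to ask whether the family changed in the ganglion of the injured nerve. No member was called. Counts were tested with edgeR's quasi-likelihood test over the 463 miRNAs that passed a filter on low counts, and a call needed a Benjamini-Hochberg adjusted p below 0.05. Levels are counts per 1000000 miRNA counts, scaled by TMM factors (CPM), which set a miRNA against the bulk of the other miRNAs. The filter kept 3 of the 4 members.

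miR-26a-5p stood at 79075, 101890 and 103266 CPM in CCI-ION libraries 1 to 3, and at 77305, 89568 and 109580 CPM in sham libraries 1 to 3. The library numbered 1 was the lowest of its group in both, and the groups overlapped widely. The means were 94743 ± 13587 CPM in CCI-ION and 92151 ± 16292 CPM in sham (SD, n = 3 each). The log2 fold change, CCI-ION over sham, was 0.04 ± 0.17 (SE), with an edgeR adjusted p of 0.986. The 95% interval of the fold ran from 0.777 to 1.36. The interval spans changes in both directions, so neither a change nor an equal level is shown.

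miR-26b-5p stood at 1396, 2597 and 1974 CPM in CCI-ION libraries 1 to 3, and at 1818, 2460 and 2155 CPM in sham libraries 1 to 3. CCI-ION held both the highest and the lowest library, and the sham libraries lay between them. The means were 1989 ± 600.4 CPM in CCI-ION and 2144 ± 321.1 CPM in sham (SD, n = 3 each). The log2 fold change was -0.11 ± 0.24 with an edgeR adjusted p of 0.947, and the 95% interval of the fold ran from 0.630 to 1.37.

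miR-26b-3p, the rarer strand of its hairpin, stood at 5.34, 8.69 and 6.19 CPM in CCI-ION libraries 1 to 3, and at 6.16, 7.23 and 7.53 CPM in sham libraries 1 to 3. Here too the sham libraries lay inside the range of the CCI-ION libraries. Its log2 fold change was -0.06 ± 0.25 (edgeR adjusted p = 0.986), with a 95% interval of the fold from 0.638 to 1.45.

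**Figure D3:**
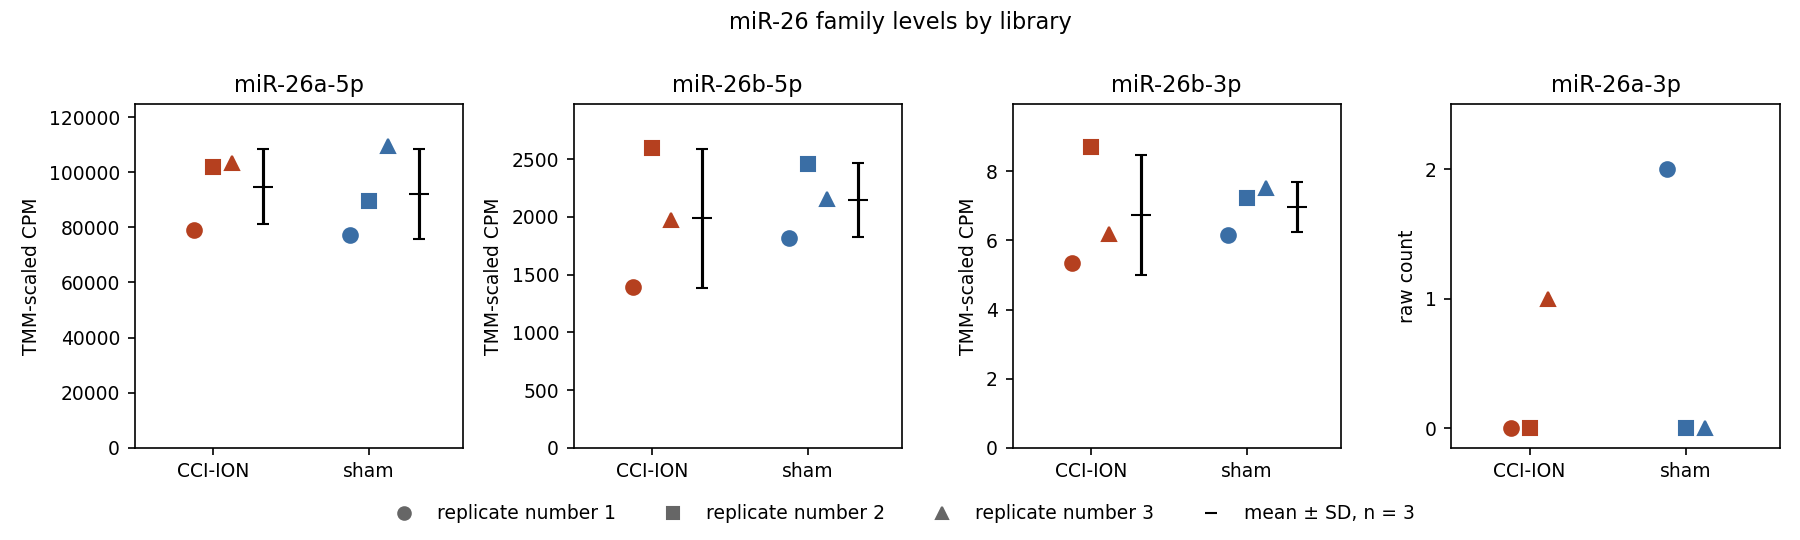
Level of each miR-26 member by library, CCI-ION in red and sham in blue, with marker shapes for the replicate number and bars for mean ± SD (n = 3); the vertical axes are TMM-scaled CPM from 0, and raw counts for miR-26a-3p. The groups overlap in all 4 panels, and miR-26a-3p has 0 counts in 4 of 6 libraries.

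Over all tested miRNAs this fit called 0.648%, 3 of 463 (0.216% higher and 0.432% lower in CCI-ION), so the members' count of 0 lies near the background. None of the 3 members had an unadjusted p under 0.05, and DESeq2 and limma-voom called none of them. Nor did any of the 3 have groups without overlap, which 13.8% of all tested miRNAs had. The libraries of the same replicate number varied together in these data. A fit with that number as a block was therefore also run, though its p-values hold only if that pairing is real. It called 11.7% of all tested miRNAs (6.05% higher and 5.62% lower in CCI-ION) and again none of the members. It narrowed the intervals: the fold was 1.03 (95% interval 0.912 to 1.17) for miR-26a-5p, 0.906 (0.786 to 1.04) for miR-26b-5p and 0.949 (0.680 to 1.33) for miR-26b-3p. edgeR adjusted p-values with the block were 0.812, 0.451 and 0.888 for these strands.

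The scale mattered for the direction. The total behind the deposited RPM is larger than the miRNA counts and holds other reads whose nature is not given. miRNA counts were 45.4% to 55.8% of it in CCI-ION libraries and 52.3% to 66.6% in sham libraries. In RPM, miR-26a-5p stood at 37811, 45212 and 55652 in CCI-ION libraries 1 to 3, and at 42836, 57782 and 72075 in sham libraries 1 to 3. On this scale miR-26a-5p was lower in CCI-ION in 3 of 3 pairs of libraries with the same number, and the groups still overlapped.

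In RPM, miR-26b-5p stood at 667.7, 1152 and 1064 in CCI-ION libraries 1 to 3, and at 1007, 1587 and 1417 in sham libraries 1 to 3. It too was lower in CCI-ION in 3 of 3 pairs, with overlapping groups. Scaled to these totals without the block, neither was called: the log2 fold change was -0.32 ± 0.24 for miR-26a-5p (edgeR adjusted p = 0.415) and -0.48 ± 0.26 for miR-26b-5p (edgeR adjusted p = 0.281), and the median of all tested miRNAs was itself at -0.34. With the block and these totals, miR-26b-5p was called lower at -0.49 ± 0.15 (edgeR adjusted p = 0.0183), as were 33.2% of all tested miRNAs, whose median was -0.35. miR-26a-5p was not called there (-0.30 ± 0.14, edgeR adjusted p = 0.0817). On both scales, with and without the block, the 95% interval of each 5p strand held the median of all tested miRNAs.

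**Figure D4:**
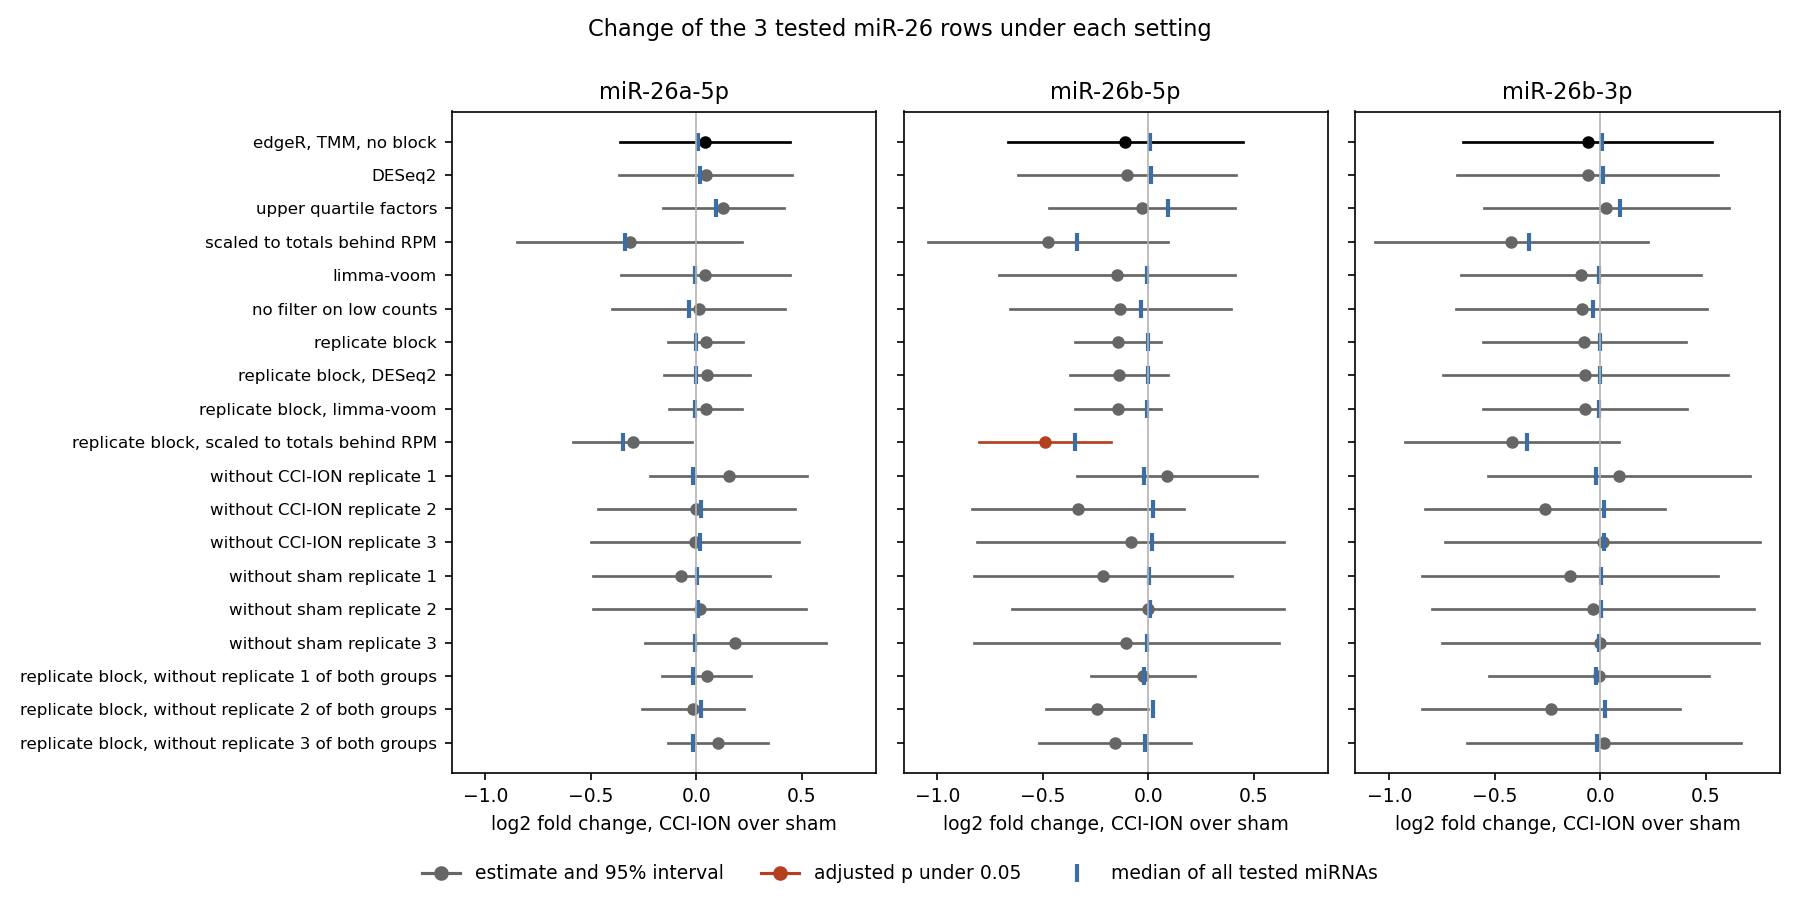
log2 fold change, CCI-ION over sham (horizontal axis), with its 95% interval for the 3 tested members under each fit (rows); blue ticks give the median of all tested miRNAs in the same fit. The only interval drawn in red, miR-26b-5p with the replicate block and scaling to the totals behind the RPM, had an adjusted p under 0.05, and there the median of all miRNAs was shifted to -0.35.

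Whether the 5p strands changed alike was tested on their ratio within each library, which needs no scaling between libraries. There were 56.6, 39.2 and 52.3 counts of miR-26a-5p per count of miR-26b-5p in CCI-ION libraries 1 to 3, and 42.5, 36.4 and 50.9 in sham libraries 1 to 3. The ratio was higher in CCI-ION in 3 of 3 pairs with the same number, and by very little in the pair numbered 3, while the groups as a whole overlapped. The mean log2 ratio was 5.61 ± 0.28 in CCI-ION and 5.42 ± 0.24 in sham (SD, n = 3 each), a difference of 0.19 with a two-sided exact permutation p of 0.4, where 0.1 is the smallest possible. Paired by number, the exact sign-flip p was 0.25, the smallest that 3 pairs allow.

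The balance of the arms of Mir26b was tested in the same way. There were 261.2, 298.9 and 319 counts of miR-26b-5p per count of miR-26b-3p in CCI-ION libraries 1 to 3, and 295.1, 340.4 and 286.2 in sham libraries 1 to 3. The groups overlapped and the pairs did not go one way. The difference of the mean log2 ratios was -0.07 (two-sided exact permutation p = 0.6, n = 3 each).

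**Figure D5:**
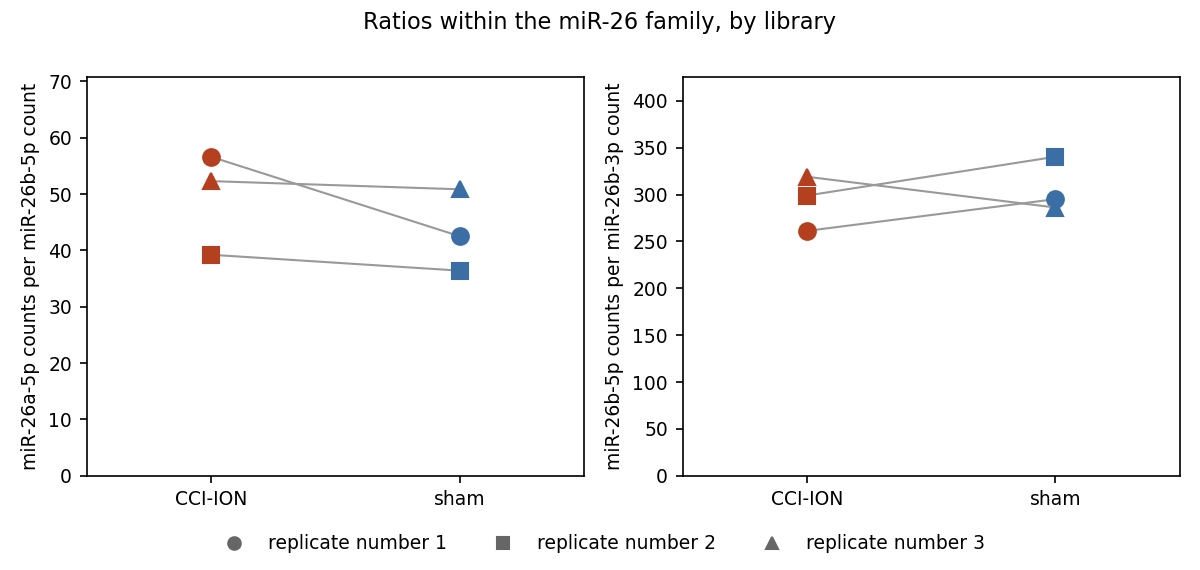
Counts of miR-26a-5p per count of miR-26b-5p (left) and of miR-26b-5p per count of miR-26b-3p (right) in each library, CCI-ION in red and sham in blue; lines join libraries of the same replicate number. On the left all 3 lines are higher at CCI-ION, from 56.6 against 42.5 in the pair numbered 1 to 52.3 against 50.9 in the pair numbered 3; on the right they cross.

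Together the 4 rows held 8.48%, 10.1% and 10.2% of miRNA counts in CCI-ION libraries 1 to 3, and 8.39%, 8.92% and 11.0% in sham libraries 1 to 3. The means were 9.59% ± 0.963 in CCI-ION and 9.45% ± 1.40 in sham (SD, n = 3 each), with a two-sided exact permutation p of 0.9.

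The spread of the members between libraries lay on both sides of the median of all tested miRNAs. The SD of log2 CPM within groups was 0.24 for miR-26a-5p, 0.35 for miR-26b-5p and 0.27 for miR-26b-3p, against a median of 0.28 over the 463 tested miRNAs. Of the 100 miRNAs nearest in level, 81% varied less than miR-26b-5p and 58% less than miR-26a-5p.

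Likeness of pattern was described by Pearson's r of log2 CPM over the 6 libraries, with no p, because the libraries numbered 1 stood apart and set much of it. They were low in both 5p strands, so r was also taken over the other 4 libraries. Between miR-26a-5p and miR-26b-5p, r was 0.623 over 6 libraries and -0.496 over 4. Their likeness thus rested on the libraries numbered 1. miR-26b-5p was more like its own 3p strand, with r of 0.928 over 6 libraries and 0.841 over 4. The rows most like miR-26b-5p were miR-340-5p (0.996), miR-17-2-3p (0.995), miR-30d-3p (0.989), miR-29a-3p (0.988) and miR-338-3p (0.979), and over 4 libraries r was 0.992, 0.985, 0.985, 0.952 and 0.929 for them. A total of 42 miRNAs had r above 0.9 with miR-26b-5p, so these 5 are not a distinct group. The rows most like miR-26a-5p were miR-3084a-5p (0.956), miR-337-5p (0.943), miR-10a-3p (0.908), miR-299a-5p (0.905) and miR-380-5p (0.901). Over 4 libraries their r was 0.833, 0.669, 0.362, 0.389 and 0.250, so r was lower for each of these 5 without the libraries numbered 1. For miR-26b-3p they were miR-7a-1-3p (0.990), miR-143-3p (0.959), miR-17-2-3p (0.957), miR-369-3p (0.956) and miR-20b-5p (0.944), with r of 0.987, 0.965, 0.916, 0.894 and 0.915 over 4.

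miRNAs that share known targets or roles with the family were counted from 3 lists. The first holds 9 miRNAs linked to axon growth in sensory neurons, the role in which miR-26a acts on Gsk3b in mouse. edgeR called 0 of 9 without the block (2 had an unadjusted p below 0.05; DESeq2 called 0) and 3 with it, against the 11.7% called over all tested miRNAs. The list median of the log2 fold change was 0.15, where that of all tested miRNAs was 0.01. With the block and scaling to the totals behind the RPM, miR-21-5p was higher and miR-138-5p and miR-9a-5p were lower, where 1.33% of all tested miRNAs were called higher and 33.2% lower. With the block, miR-21-5p, which rises in sensory ganglia after axotomy, rose: it stood at 3666, 7863 and 5652 CPM in CCI-ION libraries 1 to 3, against 2653, 3705 and 2874 CPM in sham libraries 1 to 3. The lowest CCI-ION library lay below the highest sham library, yet each pair of the same number had the higher value in CCI-ION (with the block, log2 fold change 0.84 ± 0.11, edgeR adjusted p = 5.63e-08 with it and 0.316 without). miR-155-5p, a miRNA of inflammation, rose with the block, at 26.8 ± 6.91 CPM in CCI-ION and 16.9 ± 2.47 CPM in sham (n = 3 each, edgeR adjusted p = 0.00512 with the block and 0.432 without). miR-138-5p, which acts on Sirt1 in mouse sensory neurons, fell with the block, at 808.2 ± 104.1 CPM in CCI-ION and 998.5 ± 108.4 CPM in sham (n = 3 each, edgeR adjusted p = 0.039 with the block and 0.601 without). miR-9a-5p, an abundant neuronal miRNA, stood at 12240 ± 2591 CPM in CCI-ION and 13124 ± 1893 CPM in sham and was not called under TMM scaling. With the block, the list had 2 calls without the libraries numbered 1, 1 without those numbered 2 and 0 without those numbered 3.

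The second list holds 6 other miRNAs known to act on Ezh2, a shared target. edgeR called 0 of 6 without the block (1 had an unadjusted p below 0.05; DESeq2 called 0) and 2 with it, both lower: miR-124-3p and miR-138-5p, where 5.62% of all tested miRNAs were called lower. The list median was -0.20, against 0.01 over all tested miRNAs. On the RPM scale with the block, 5 of 6 were called lower, where 33.2% of all were. miR-124-3p, the best known neuronal miRNA, stood at 191.3, 190.5 and 158.2 CPM in CCI-ION libraries 1 to 3, against 242.3, 260.8 and 249.9 CPM in sham libraries 1 to 3. The groups did not overlap, as was so for 13.8% of all tested miRNAs (log2 fold change of -0.48 ± 0.11 with the block, edgeR adjusted p = 0.000927 with it and 0.316 without). miR-101a-3p, a much studied miRNA that targets Ezh2, stood at 345 ± 65.4 CPM in CCI-ION and 411.8 ± 60.6 CPM in sham and was called lower on the RPM scale with the block but not under TMM scaling. With the block, miR-124-3p alone was called without the libraries numbered 1, and no list member was called without those numbered 2 or those numbered 3.

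The third list holds 5 miRNAs of the circuit around Rest and the Ctdsp phosphatases, the host genes of the family: miR-124-3p, miR-9a-5p, miR-9a-3p, miR-132-3p and miR-29a-3p. edgeR called 0 of 5 without the block (1 had an unadjusted p below 0.05; DESeq2 called 0) and 1 with it, miR-124-3p, with the same dependence on the libraries. That is 1 of 5 where the block called 11.7% of all, and the list median was -0.10, against 0.01 over all tested miRNAs. On the RPM scale with the block, 4 of 5 were called lower, where 33.2% of all were. miR-29a-3p stood at 3408 ± 683.6 CPM in CCI-ION and 3603 ± 312.8 CPM in sham and was not called under TMM scaling.

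Markers of several cell types were found, and no marker of any list was at 0 in all libraries. Whether reads of the skeletal muscle and erythroid markers came from the ganglion itself was not tested. Sensory neuron markers (miR-183-5p, miR-96-5p and miR-182) summed to 3.65% to 4.41% of miRNA counts in CCI-ION libraries and 3.72% to 4.41% in sham libraries. edgeR called 0 of these 3 with or without the block (0 had an unadjusted p below 0.05; DESeq2 called 0), and 2 lower with the block on the scale of the totals behind the RPM, where 33.2% of all were. The 6 neuronal markers summed to 1.79% to 2.09% in CCI-ION and 2.24% to 2.40% in sham. edgeR called 0 of 6 without the block (2 had an unadjusted p below 0.05; DESeq2 called 1) and 5 lower with it, where 5.62% of all were. With the block, 3 were called when the libraries numbered 1 were left out, 2 without those numbered 2 and 0 without those numbered 3. The 5 leukocyte markers summed to 0.0275% to 0.0349% in CCI-ION and 0.0215% to 0.0282% in sham. edgeR called 0 of them without the block (2 had an unadjusted p below 0.05; DESeq2 called 0). With the block 2 of these 5 were higher, miR-142-3p and miR-155-5p, where 6.05% of all were. The axon growth list had already counted miR-155-5p. With the block, 3 leukocyte markers were higher without the libraries numbered 1, where 26 of 453 tested miRNAs were. The number was 0 without the libraries numbered 2, without those numbered 3 or on the scale of the totals behind the RPM. The 5 skeletal muscle markers summed to 0.352% to 0.815% in CCI-ION and 0.551% to 1.03% in sham, and edgeR called 0 without the block (1 had an unadjusted p below 0.05; DESeq2 called 0). With the block 2 were lower, miR-1b and miR-133a-3p, where 5.62% of all were. The number was 2 without the libraries numbered 1, 3 without those numbered 2 and 0 without those numbered 3. It was 3 on the RPM scale with the block, where 33.2% of all were lower. The sum was mostly miR-1b, at 5905 ± 2511 CPM in CCI-ION and 8386 ± 2939 CPM in sham (n = 3 each). miR-133a-3p stood at 49.5 ± 8.95 and 76.8 ± 11.5 CPM.

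The 5 myelinating glia markers summed to 0.519% to 0.578% in CCI-ION and 0.601% to 0.663% in sham, without overlap. Of single tested miRNAs, 13.8% had groups without overlap. Of the 4 tested, 1 rose, miR-219a-1-3p, at 15.15 ± 2.08 CPM in CCI-ION and 4.77 ± 1.08 CPM in sham (n = 3 each, edgeR adjusted p = 0.0239), where 0.216% of all were called higher. The abundant miR-338-5p stood at 3717 ± 333 CPM in CCI-ION and 4266 ± 286.7 CPM in sham. miR-219a-2-3p ran from 7.08 to 182 CPM in CCI-ION and from 12.6 to 175.3 CPM in sham, and miR-219a-5p reached at most 0.502 CPM. On the RPM scale with the block, miR-219a-1-3p was called higher and miR-338-3p and miR-338-5p lower, where 1.33% and 33.2% of all were. Under TMM scaling miR-219a-1-3p was also called with the block, whichever number was left out. Without the block the call was lost under upper quartile factors and when CCI-ION library 2 or 3 or sham library 2 or 3 was left out. Erythroid markers summed to 0.0377% to 0.0822% in CCI-ION and 0.0267% to 0.0797% in sham. Endothelial markers summed to 1.15% to 1.48% in CCI-ION and 1.099% to 1.43% in sham, and mural markers to 1.87% to 3.10% in CCI-ION and 1.96% to 2.68% in sham. None of the erythroid, endothelial and mural markers was called by edgeR under TMM scaling, with or without the block (0 had an unadjusted p below 0.05 without it; DESeq2 called 0), and on the RPM scale the block called 1 of each lower. The part of any of these shifts in the levels of the miR-26 family was not tested.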

How the data were processed

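The authors deposited raw counts per mature miRNA for the 6 libraries and, per library, RPM values. The submitters' processing notes name cutadapt 1.14, Bowtie 1.1.1 and the build rn6. The kit named in the labels is a TruSeq RNA kit, and the counter, the annotation and the mismatches allowed remain unknown. RPM values as deposited equal the counts times 1 constant per library: 100% of 3900 values came out as whole reads within 0.01 read, the recovered reads equal the deposited counts, and edgeR on them calls 3 miRNAs.

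Counts were tested with edgeR 4.0.16 in R 4.3.3 (robust quasi-likelihood fit, TMM factors, filterByExpr with a minimum count of 10), with group as the only term. SEs were taken from the F statistic and 95% intervals from the moderated degrees of freedom. DESeq2 1.42.0, limma-voom (limma 3.58.1), other scalings, no filter, a replicate block and left-out libraries served as alternatives. Exact tests used scipy 1.17.1 and folds RNAfold (ViennaRNA 2.7.2). The fits were also run on simulated counts, drawn with no replicate effect and with planted changes larger than those of the members. Such counts cannot judge the block on paired libraries, nor how well changes as small as those of the members are found. The filter kept 463 miRNAs and left out 187. In CPM, 3 counts (the floor) are 0.225 to 0.483. Both groups carry replicate numbers 1 to 3 in the sample titles. Deviations from the group means in log2 CPM (prior count 2) correlated at 0.664, 0.591 and 0.457 between libraries numbered 1, 2 and 3, so the numbers were treated as pairing the libraries. Between libraries of different numbers the correlations ran from -0.614 to 0.166. Deviations within a group add up to 0, so positive correlations at the same number push the others toward negative values. The lower range is therefore no separate sign of pairing. The pairing was thus read from the same data that the block then tested. What a number stands for is not stated.

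The members, the lists and the rules were chosen with earlier results of these data known. Named miRNAs are the members, the called and the 2 most abundant miRNAs of the 3 function lists, the 2 rows above and below each member in level, and the 5 with the highest r to each tested member. Others (list and marker members and the miRNAs closest to miR-26a in arm use) were named after their values were seen.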

Additional observations from a re-analysis of the deposited data

How the results depend on the processing

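Of 19 other fits each, miR-26a-5p and miR-26b-3p were called in 0 and miR-26b-5p in 1. miR-26b-5p was below 0 in 18 of its 19 fits, miR-26b-3p in 14 and miR-26a-5p in 6. Without single libraries the log2 fold change of miR-26a-5p ranged from -0.072 (sham library 1 left out) to 0.18 (sham library 3 left out), and was also below 0 without CCI-ION library 2 or 3. That of miR-26b-5p ranged from -0.33 (without CCI-ION library 2) to 0.091 (without CCI-ION library 1), and that of miR-26b-3p from -0.26 (without CCI-ION library 2) to 0.089 (without CCI-ION library 1). With the replicate block and without 1 number, the ranges were -0.017 to 0.10, -0.24 to -0.026 and -0.23 to 0.018 for these 3 strands. Scaled to the totals behind the RPM, where the median of all miRNAs moved to -0.34, miR-26a-5p was at -0.32, and at -0.30 with the block, where miR-26b-5p was called lower at -0.49. Under upper quartile factors miR-26b-3p was at 0.030. With the plain block their values were 0.044, -0.14 and -0.075.

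The number of miRNAs called, 3 in the fit without the block, was 9 with DESeq2, 6 when scaled to the totals behind the RPM and 6 with no filter on low counts. With the block it was 54, 44 with DESeq2, 56 with limma-voom and 156 when scaled to those totals. Without 1 library it was 1 (CCI-ION library 2 or 3, sham library 2 or 3) to 7 (CCI-ION library 1), and with the block and without 1 number 5 (number 3), 31 (number 2) and 45 (number 1). With the block, 3 axon growth, 2 Ezh2 and 1 Rest and Ctdsp list members were called, without 1 number 0 to 2, 0 to 1 and 0 to 1, and scaled to the totals behind the RPM 3, 5 and 4.

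The family's share of counts differed by 0.139 percentage points between CCI-ION and sham, by -1.17 as a share of the totals behind the RPM, and by -0.392 to 0.933 without single libraries. The difference of the log2 ratio of the 5p strands ranged from 0.070 to 0.34 without single libraries, and that of the arms of Mir26b from -0.13 to 0.012. miR-26a-3p, with 3 counts in all, is limited by depth.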
